A study of Homo sapiens with 6 samples.

Results

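Interferon-stimulated genes are the genes that cells switch on when interferon reaches them. The set described here was 38 of the 61806 genes in the table, chosen by gene symbol from a fixed list. Every one of the 38 had a row, RIGI under its older symbol DDX58. They were compared in Ishikawa, an established cell line from a human endometrial adenocarcinoma, between 3 libraries labelled EV and 3 labelled as overexpressing TEFM, the mitochondrial transcription elongation factor. The meaning of EV was not given in the sources used here. Neither group has a treatment in the labels, and both grew in DMEM with fetal bovine serum. No interferon, virus or nucleic acid is listed as added, and how TEFM was introduced is not stated. The submitters' design text calls the 3 replicates of a group biological and independent. No label says whether the TEFM derivatives are 1 clone or a pool, and p-values measure the spread between libraries.

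In the classical pathway, type I interferon (such as interferon beta) and type III interferon (interferon lambda) bind their receptors and activate the kinases JAK1 and TYK2. A complex that holds STAT2 and IRF9 then binds interferon-stimulated response elements in promoters. RNA sensors such as RIG-I and MDA5 act a step earlier and trigger interferon production through the mitochondrial protein MAVS. Double-stranded RNA released from mitochondria is a known ligand of MDA5. The proteins made in response block viral entry, translation and RNA stability, and some of them, such as USP18, shut the pathway down again.

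Most members carried the response element letters close to their start. The motif searched was GAAANNGAAA on both strands (TTTCNNTTTC on the other), where matches may overlap each other, in RefSeq windows from 250 bases before to 50 bases after the transcription start (GRCh38.p14). Of the 31 members with such a window, 21 held at least 1 match in any of their windows (67.7%). Counted the same way, the share was 4.38% of all 27305 gene symbols with a window. Per window, it was 3.57% of all 35116 windows in the table. Among tested genes with a window the share was 3.42%. A match is a description of the letters and does not show that a factor binds there. IFIT2, IFITM2, OAS2, OASL, MX2, IRF7 and USP18 were not matched to a window. The windows below belong to members that carry the results: IFITM1 and IFITM3, IFIT1, RSAD2, HERC5 and ISG15, which were higher with TEFM, and BST2, which was lower. Capitals mark the matched letters, 5′ to 3′ on the strand of the gene.
IFITM1 (chr11:313790-314089, plus strand): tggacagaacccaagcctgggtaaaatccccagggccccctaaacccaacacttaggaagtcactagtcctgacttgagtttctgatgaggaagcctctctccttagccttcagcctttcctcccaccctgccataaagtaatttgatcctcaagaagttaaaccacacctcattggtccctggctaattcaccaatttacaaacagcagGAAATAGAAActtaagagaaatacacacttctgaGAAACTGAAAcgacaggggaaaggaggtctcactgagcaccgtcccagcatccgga
IFITM3 (chr11:320811-321110, minus strand): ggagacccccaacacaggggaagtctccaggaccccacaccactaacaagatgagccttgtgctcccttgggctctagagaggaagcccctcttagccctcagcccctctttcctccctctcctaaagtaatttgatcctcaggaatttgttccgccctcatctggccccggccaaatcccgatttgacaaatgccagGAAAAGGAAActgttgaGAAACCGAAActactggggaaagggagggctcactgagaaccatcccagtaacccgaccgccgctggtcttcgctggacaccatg
IFIT1 (chr10:89392373-89392672, plus strand): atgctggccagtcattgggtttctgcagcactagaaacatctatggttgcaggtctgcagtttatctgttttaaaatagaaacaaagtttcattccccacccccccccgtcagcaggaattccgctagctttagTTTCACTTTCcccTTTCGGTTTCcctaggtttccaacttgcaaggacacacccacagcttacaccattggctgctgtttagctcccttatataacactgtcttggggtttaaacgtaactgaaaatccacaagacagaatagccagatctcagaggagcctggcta
RSAD2 (chr2:6877527-6877826, plus strand): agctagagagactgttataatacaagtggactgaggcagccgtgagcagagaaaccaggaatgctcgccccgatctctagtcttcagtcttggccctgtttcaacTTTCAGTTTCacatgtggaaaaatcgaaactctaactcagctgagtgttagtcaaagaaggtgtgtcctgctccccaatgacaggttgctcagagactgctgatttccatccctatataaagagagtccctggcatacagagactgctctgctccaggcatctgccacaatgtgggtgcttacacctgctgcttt
HERC5 (chr4:88456869-88457168, plus strand): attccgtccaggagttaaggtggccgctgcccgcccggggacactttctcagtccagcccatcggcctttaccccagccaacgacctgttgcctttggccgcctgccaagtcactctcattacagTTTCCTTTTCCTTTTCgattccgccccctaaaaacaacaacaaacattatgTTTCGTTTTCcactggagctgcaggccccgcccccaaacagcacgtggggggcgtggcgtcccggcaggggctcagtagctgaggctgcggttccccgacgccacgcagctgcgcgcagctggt
ISG15 (chr1:1013247-1013546, plus strand): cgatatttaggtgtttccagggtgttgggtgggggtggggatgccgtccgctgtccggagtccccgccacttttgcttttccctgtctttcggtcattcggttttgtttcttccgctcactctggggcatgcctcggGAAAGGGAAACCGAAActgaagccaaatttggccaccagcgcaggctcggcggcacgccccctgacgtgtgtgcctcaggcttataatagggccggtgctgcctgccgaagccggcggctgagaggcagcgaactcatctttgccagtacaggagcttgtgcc
BST2 (chr19:17405581-17405880, minus strand): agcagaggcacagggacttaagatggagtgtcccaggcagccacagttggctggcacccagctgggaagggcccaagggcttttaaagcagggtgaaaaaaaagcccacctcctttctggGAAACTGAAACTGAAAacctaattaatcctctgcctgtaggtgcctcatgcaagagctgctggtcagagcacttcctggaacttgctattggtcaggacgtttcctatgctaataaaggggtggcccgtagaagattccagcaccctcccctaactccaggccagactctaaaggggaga

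In these 7 windows the matches lay from position -145 to position -6, counted from the transcription start. HERC5 held 3, RSAD2 held 1 and each of the others held 2. BST2, which moved the opposite way, had the same kind of motif as the members that rose. Its 2 matches overlap, as do those of ISG15 and 2 of the 3 in HERC5. Of 13 members that rose and had a window, 10 held a match, and CMPK2, STAT2 and HERC6 did not. Among untested members with a window, 9 of 16 held a match. BST2, the 1 member with a window that fell, and IFI44, the 1 that did not pass, also held a match. Whether these shares differ was not tested.

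The libraries held 14252668 to 17891047 counts each. TEFM itself (chromosome 17, 30897336 to 30906238, minus strand) stood at 4.13, 4.24 and 4.55 FPKM in EV and at 23.65, 22.72 and 23.98 FPKM in TEFM. FPKM are counts scaled by the exon length of the gene and by the total count of the library. The difference follows the labels (log2 fold change 2.48 ± 0.0788 SE, edgeR adjusted p = 9.75e-18). With 3 libraries against 3, no gene taken alone can go below p = 0.1 in an exact two-sided permutation test, and TEFM reached that value. Epithelial markers were abundant in both groups, with EPCAM at 137.16 to 144.24 FPKM in EV and 189.09 to 191.46 FPKM in TEFM, and 8 of the 9 tested markers were higher with TEFM, beside 21.7% of all tested genes. Their median log2 fold change was 0.45, about that of the interferon-stimulated genes below. The oestrogen receptor gene ESR1, a marker of endometrial epithelium, was listed at only 0 to 3 counts per library. Without a filter, 8 of the 11 epithelial markers rose and 1 fell, beside 9.46% and 9.23% of all genes then tested. PGR, the progesterone receptor gene, had 17, 5 and 18 counts in EV and 4, 3 and 5 in TEFM. It was named after its values were seen. Leukocyte markers, whose cells would bring interferon-stimulated RNA of their own, summed to 1.01 to 1.12 FPKM in EV and to 0.93 to 1.5 FPKM in TEFM over 12 genes. PTPRC had 1 to 5 counts per library, and CD3E, CD3D and MS4A1 were at 0 in all 6. Fibroblast and endothelial markers summed to 2.26 to 2.55 FPKM in EV and 2.33 to 3.3 FPKM in TEFM over 12 genes. Without a filter on low values, 4 of the 11 with counts rose and 0 fell, beside 9.46% and 9.23% of all genes then tested. COL1A1, the 1 marker of these that passed the filter, stood at 1.58 ± 0.0666 and 1.61 ± 0.142 FPKM. Their part in the results was not tested.

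Interferon-stimulated genes were mostly higher with TEFM, and moderately so. Of 38 members, 20 had a mean of at least 1 FPKM over the 6 libraries and were tested. At an adjusted p of 0.05, 16 of these 20 rose, BST2 and USP18 fell, and IRF7 and IFI44 did not pass (edgeR's quasi-likelihood test, adjusted over all 14254 tested genes). Over all tested genes, 21.7% rose and 21.7% fell, 43.4% in either direction. The median log2 fold change of the 20 members was 0.46, from -0.63 to 1.12, beside a median of -0.0027 over all tested genes. The largest rise was 2.18-fold. Counts scaled by library size did not overlap between EV and TEFM libraries for 14 members in the higher direction and for 2 in the lower, beside 21.3% and 30.6% of all tested genes. CMPK2 passed the filter through its TEFM libraries alone; of the 19 members with both group means at 1 FPKM or above, 15 rose. Just inside the filter stood CMPK2 at 1.33 and IRF7 at 1.38 mean FPKM, and just outside it RIGI at 0.87 and IRF9 at 0.835. Without a filter, 37 members had at least 1 count; 20 of them rose and 3 fell, beside 9.46% and 9.23% of the 37256 genes then tested. In bulk RNA, a change in the number of responding cells and a change in RNA per cell cannot be told apart.

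**Figure D1:**
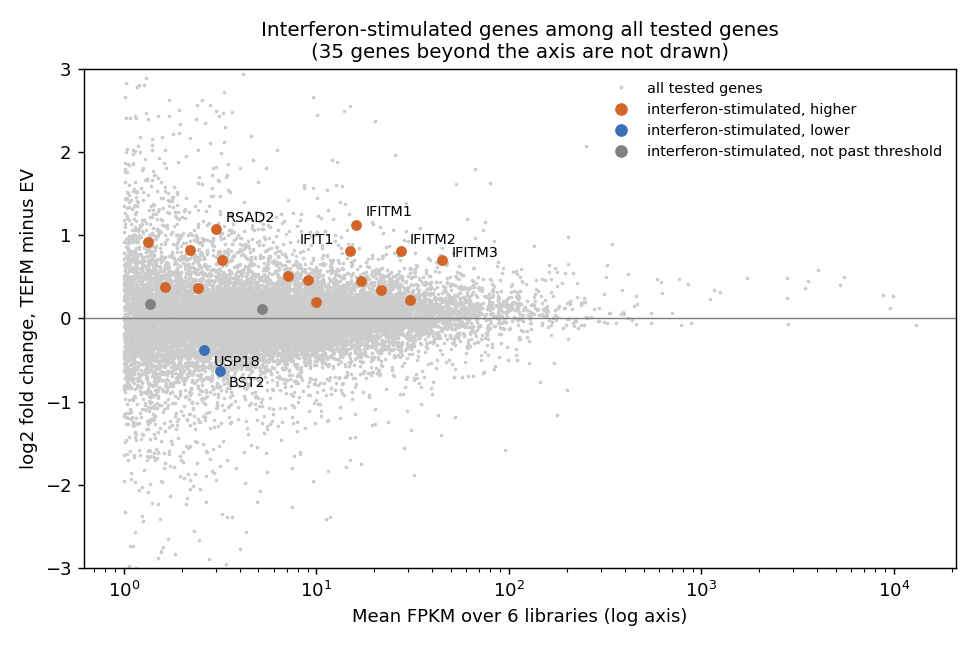
Each point is a gene, with its mean FPKM over 6 libraries on the horizontal log axis and its log2 fold change (TEFM minus EV) on the vertical axis; grey points are all 14254 tested genes, and 35 of them beyond the axis are not drawn. Of the 20 coloured members, 18 lie above 0, from 0.11 (IFI44) to 1.12 (IFITM1), and USP18 and BST2 lie below it.

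The IFITM genes, which encode small membrane proteins that block entry of enveloped viruses, rose together. All 3 lie side by side at the end of the short arm of chromosome 11. IFITM1 (310041 to 315272, plus strand) stood at 10.50, 10.38 and 10.06 FPKM in the EV libraries and at 22.06, 22.66 and 20.89 FPKM in the TEFM libraries. Every TEFM library was thus higher than every EV library, with little spread within a group. Its log2 fold change of 1.12 ± 0.0820 SE was the largest of the tested members (edgeR adjusted p = 5.35e-11). IFITM3 (319676 to 329475, minus strand), the most abundant member, stood at 35.24, 35.11 and 34.41 FPKM in EV and at 56.57, 53.05 and 55.56 FPKM in TEFM. The groups were again apart, and its log2 fold change was 0.70 ± 0.0444 SE (edgeR adjusted p = 4.62e-12). IFITM2 went from 20.3 ± 1.58 to 34.6 ± 2.48 FPKM (SD, n = 3). These genes share sequence: 32.0% of the 50-base stretches of IFITM1 transcripts, 34.1% of those of IFITM2 and 17.4% of those of IFITM3 also occur in transcripts of another gene in GENCODE v29. The counting of such reads was not given in the sources used here, and the split among the 3 is uncertain. The 105 other tested genes in the same 10 Mb bin of the chromosome, members left out, showed a median of 0.12 on the log2 scale, and IFITM1, IFITM2 and IFITM3 lay 1.00, 0.68 and 0.57 above it.

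BST2 encodes tetherin, which holds budding viruses at the cell surface, and it went the other way. On chromosome 19 (17402939 to 17405630, minus strand), it stood at 4.11, 3.19 and 4.30 FPKM in EV and at 3.06, 1.97 and 2.29 FPKM in TEFM. The lowest EV and the highest TEFM library lay close, without overlap. The log2 fold change was -0.63 ± 0.227 SE (edgeR adjusted p = 0.0283). The call rested on few counts, 36 to 81 per library. It was lost with DESeq2 (adjusted p = 0.0531) and in edgeR when 1 library was left out, be it TEFM replicate 2, TEFM replicate 3, EV replicate 1 or EV replicate 3, where the highest adjusted p was 0.131.

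**Figure D2:**
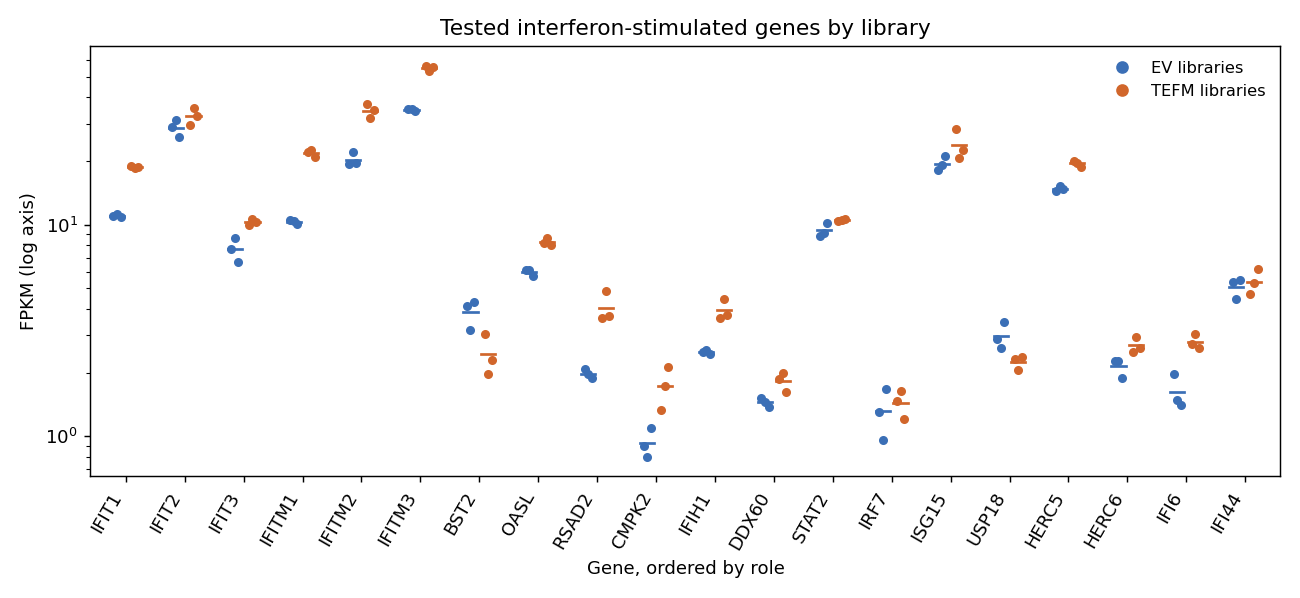
FPKM on a log axis for the 20 tested members in each of the 6 libraries (points: EV in blue, TEFM in orange; lines: group means). IFITM1, IFITM3 and IFIT1 show groups far apart with narrow spread, IRF7 and IFI44 overlap, and BST2 and USP18 are the 2 whose TEFM libraries lie lower.

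IFIT proteins bind viral or unmodified RNA ends and block translation, and their genes form a cluster on chromosome 10. IFIT1 (89392546 to 89406487, plus strand), which recognises RNA caps lacking methylation, was at 11.04, 11.24 and 10.85 FPKM in EV and at 18.90, 18.62 and 18.81 FPKM in TEFM. That is a separation many times wider than the spread within either group, with a log2 fold change of 0.81 ± 0.0534 SE (edgeR adjusted p = 9.16e-12). IFIT3, a partner that stabilises IFIT1, rose from 7.68 ± 0.971 to 10.3 ± 0.326 FPKM (SD, n = 3). IFIT2 was the most abundant of the cluster, at 29.03, 31.11 and 26.02 FPKM in EV and 29.51, 35.52 and 32.73 FPKM in TEFM. Its groups overlapped, and its log2 fold change was only 0.22 ± 0.0617 SE (edgeR adjusted p = 0.00497). That call was lost without TEFM replicate 2 (edgeR adjusted p = 0.0829) and with limma on log2(FPKM + 1) (adjusted p = 0.150). IFIT5 averaged 0.518 FPKM, too low for the test. The spans of IFIT1, IFIT2 and IFIT3 lie within that of LIPA, a lysosomal lipase gene on the opposite strand, which also rose (log2 fold change 0.47). LIPA shares 0 exon bases with IFIT1 and IFIT3 and 65 with IFIT2 in GENCODE v29. The strand setting of the counting was not given in the sources used here.

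RSAD2 and CMPK2 are neighbours on chromosome 2 that run in opposite directions, and both rose. RSAD2 encodes viperin, which makes a chain-terminating nucleotide, and CMPK2 encodes a mitochondrial nucleotide kinase. RSAD2 (6865557 to 6898239, plus strand) was at 2.08, 1.97 and 1.89 FPKM in EV and at 3.61, 4.84 and 3.71 FPKM in TEFM. The TEFM libraries were all higher and more spread, TEFM replicate 2 the highest. The log2 fold change was 1.07 ± 0.118 SE (edgeR adjusted p = 6.29e-08). CMPK2 was at 0.90, 0.80 and 1.09 FPKM in EV and at 1.33, 1.73 and 2.13 FPKM in TEFM, again without overlap, with a log2 fold change of 0.92 ± 0.191 SE (edgeR adjusted p = 3.66e-04). The pair shares 14 exon bases in GENCODE v29.

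Of the RNA sensors, the MDA5 gene IFIH1 rose, and the RIG-I gene lay below the filter. IFIH1 (chromosome 2, 162267074 to 162318684, minus strand) stood at 2.50, 2.56 and 2.46 FPKM in EV and at 3.64, 4.48 and 3.76 FPKM in TEFM. All TEFM libraries were above all EV libraries (log2 fold change 0.70 ± 0.107 SE, edgeR adjusted p = 8.64e-06). The other tested genes of its 10 Mb bin had a median of -0.10. RIGI, with a mean of 0.87 FPKM, was outside the filter; its summed counts were 461 in EV and 412 in TEFM. In the unfiltered fit its log2 fold change was -0.12 ± 0.146 SE (edgeR adjusted p = 0.61). Whether the changes of the 2 sensor genes differ was not tested. DDX60, a helicase-like antiviral factor, rose from 1.45 ± 0.0700 to 1.82 ± 0.188 FPKM (SD, n = 3), a call that limma on log2(FPKM + 1) did not make (adjusted p = 0.117). The median of the 20 other tested genes in its 10 Mb bin was -0.25.

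The OAS enzymes make 2′-5′ oligoadenylates, a second messenger that leads to RNA decay, apart from OASL, which lacks that activity and instead aids RIG-I signalling. OASL rose from 6.13, 6.13 and 5.75 to 8.21, 8.67 and 8.06 FPKM, with groups that did not overlap (log2 fold change 0.51 ± 0.0660 SE, edgeR adjusted p = 8.37e-07). OAS1, OAS2 and OAS3 were barely detected. OAS1 had 1 count in each EV library and 14, 17 and 5 in the TEFM libraries. Scaled for library size, the summed counts were 12.4-fold higher (95% exact interval 3.92 to 63, counting error only). OAS2 had 9, 6 and 1 counts in EV and 18, 33 and 28 in TEFM, a ratio of 5.11 (2.96 to 9.37). OAS3 had 28, 38 and 16 counts in EV and 59, 56 and 45 in TEFM, a ratio of 2.02 (1.54 to 2.67). For all 3 the TEFM libraries were above the EV libraries, and all 3 rose in the unfiltered fit (edgeR adjusted p = 4.51e-04, 1.06e-05 and 0.00237). ISG20, an RNA exonuclease gene, had summed counts of 107 and 119, a ratio of 1.15 (0.878 to 1.51).

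The MX GTPases trap viral nucleocapsids, and neither reached the filter. MX1 had 207, 169 and 202 counts in EV and 161, 132 and 123 in TEFM. It was lower in every TEFM library, and it fell in the unfiltered fit (log2 fold change -0.43 ± 0.138 SE, edgeR adjusted p = 0.0114). The span of MX1 in the table (chromosome 21, 41420020 to 41470071, plus strand) overlaps that of TMPRSS2 (41464300 to 41531116) on the opposite strand. TMPRSS2, a protease gene with a mean of 33.4 FPKM, also fell (log2 fold change -0.72), from 13588 to 7991 summed counts. In GENCODE v29 the pair shares 0 exon bases, but there MX1 has 8616 exon bases, beside 17984 as deposited. With the strand setting unknown, reads from where the spans overlap cannot be told apart, and their part in the fall of MX1 was not tested. MX2 had 29 counts in all EV libraries together and 53 in TEFM.

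**Figure D3:**
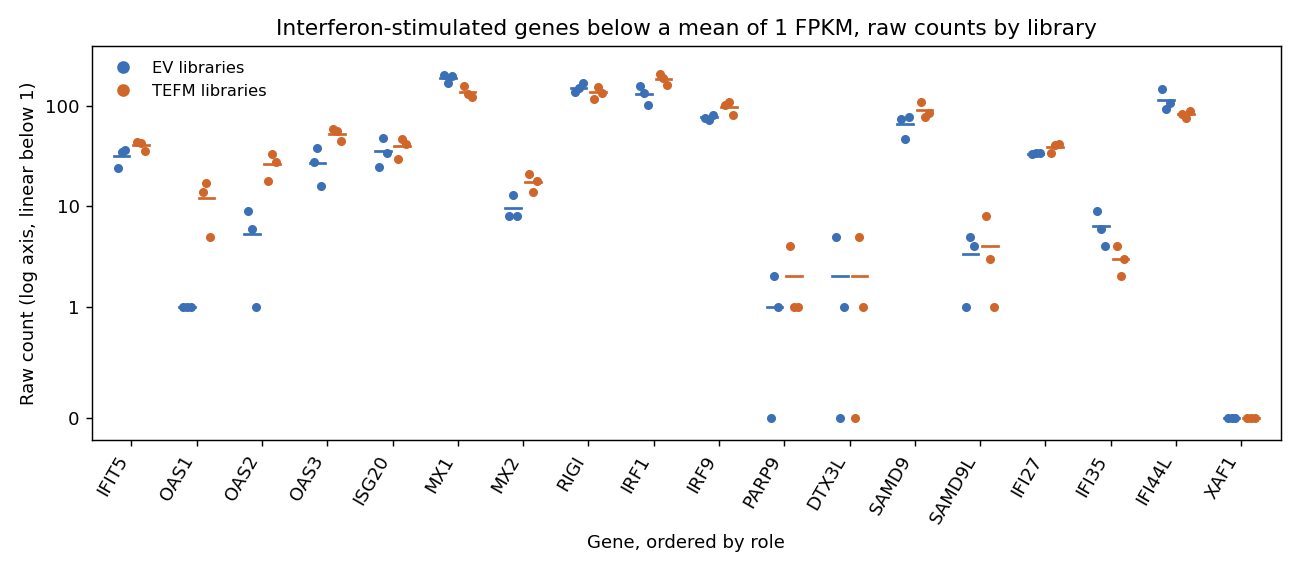
Raw counts of the 18 members below a mean of 1 FPKM in each library, on an axis that is logarithmic above 1 and linear below it (points: EV in blue, TEFM in orange; lines: group means). OAS1, OAS2 and OAS3 are higher in every TEFM library, MX1 is lower in every TEFM library, and XAF1 is at 0 throughout.

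ISG15 is a ubiquitin-like protein that is coupled to other proteins by HERC5 and removed by USP18. Here the modifier and ligase genes rose and the protease gene fell. HERC5 (chromosome 4, 88457119 to 88506163, plus strand) was at 14.38, 15.19 and 14.70 FPKM in EV and at 20.02, 19.67 and 18.84 FPKM in TEFM. Its groups stood well apart (log2 fold change 0.44 ± 0.0507 SE, edgeR adjusted p = 1.22e-07), in a 10 Mb bin with a median of -0.20. HERC6, its neighbour and relative, rose from 2.14 ± 0.228 to 2.69 ± 0.240 FPKM (SD, n = 3), but not without EV replicate 3 or TEFM replicate 2 (highest adjusted p = 0.0940, edgeR) nor with limma on log2(FPKM + 1). ISG15 was at 18.12, 19.18 and 21.05 FPKM in EV and at 28.33, 20.62 and 22.66 FPKM in TEFM. TEFM replicate 1 stood high and the groups overlapped. Its log2 fold change was 0.34 ± 0.111 SE (edgeR adjusted p = 0.0164). Without TEFM replicate 1 it was 0.19 (edgeR adjusted p = 0.188), and the call was also lost without EV replicate 1 (edgeR adjusted p = 0.0805) and with limma on log2(FPKM + 1).

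USP18, which also blocks signalling at the type I interferon receptor, was at 2.89, 2.61 and 3.47 FPKM in EV and at 2.33, 2.06 and 2.36 FPKM in TEFM. No TEFM library reached the lowest EV library. The log2 fold change was -0.37 ± 0.134 SE (edgeR adjusted p = 0.0268). It did not pass without TEFM replicate 2 (0.109), EV replicate 3 (0.158) or EV replicate 1 (0.0514), all edgeR adjusted p, nor with limma on log2(FPKM + 1) (adjusted p = 0.0538). Of the 50-base stretches of USP18, 23.4% recur in another gene, most often its near-copy USP41, so its reads are not assigned with certainty. UBE2L6, the enzyme that carries ISG15 to its ligases, was named after its values were seen. It had 1, 0 and 1 counts in EV and 22, 12 and 12 in TEFM, a ratio of 23.8 (95% exact interval 6.22 to 202, counting error only; unfiltered edgeR adjusted p = 2.44e-06).

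Of the transcription factors, STAT2 passed the test with a small rise and IRF7 did not pass, while IRF1 and IRF9 lay below the filter. STAT2 stood at 8.86, 9.17 and 10.24 FPKM in EV and at 10.47, 10.53 and 10.60 FPKM in TEFM. The TEFM libraries were all just above the highest EV library (log2 fold change 0.20 ± 0.0530 SE, edgeR adjusted p = 0.00338), a call not made by limma on log2(FPKM + 1) (adjusted p = 0.0750). IRF7, the factor that amplifies interferon production, overlapped between groups at 1.31 ± 0.355 and 1.44 ± 0.212 FPKM (SD, n = 3; edgeR adjusted p = 0.568). IRF9, the DNA-binding partner of STAT2, had summed counts of 232 and 295 and did not pass in the unfiltered fit (edgeR adjusted p = 0.165). Of its GENCODE v29 exon bases, 48.4% lie in another gene on the same strand. IRF1, which can induce many of these genes without interferon, rose in the unfiltered fit, from 160, 135 and 104 to 212, 191 and 164 counts (log2 fold change 0.55 ± 0.140 SE, edgeR adjusted p = 8.1e-04). An antisense gene, IRF1-AS1, covers 22.0% of its exon bases and had 211 summed counts in EV and 186 in TEFM.

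Among the other members, IFI6, which encodes a small membrane protein with antiviral and survival roles, rose from 1.97, 1.49 and 1.40 to 2.72, 3.04 and 2.62 FPKM. Its groups did not overlap (log2 fold change 0.82 ± 0.275 SE, edgeR adjusted p = 0.0187). The call was lost when TEFM replicate 2, EV replicate 2 or EV replicate 3 was left out, with a highest edgeR adjusted p of 0.0699. IFI44 overlapped between groups, at 5.09 ± 0.558 and 5.39 ± 0.721 FPKM (SD, n = 3; edgeR adjusted p = 0.533). IFI44L, its neighbour, had summed counts of 349 in EV and 250 in TEFM (unfiltered edgeR adjusted p = 0.0787). IFI27 had 101 and 117 summed counts and SAMD9, an inhibitor of viral translation, 200 and 274; neither passed in the unfiltered fit. Several members that many cell types induce strongly were near or at 0 in both groups. IFI35 had 19 and 9 summed counts, SAMD9L 10 and 12, DTX3L 6 and 6, and PARP9, whose product pairs with that of DTX3L, 3 and 6. XAF1 had 0 counts in all 6 libraries.

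**Figure D4:**
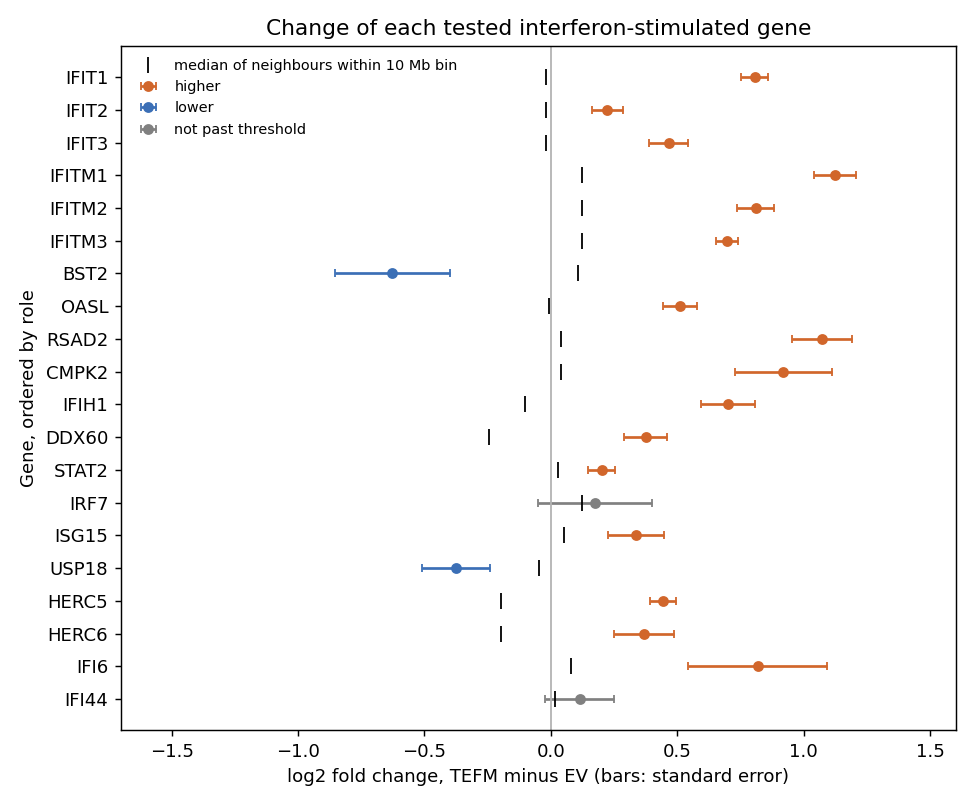
The log2 fold change (TEFM minus EV) of each tested member with its standard error, coloured by call; black ticks give the median of the other tested genes in the same 10 Mb bin. All 16 members that rose lie to the right of their tick, and BST2 and USP18 lie to the left of theirs.

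Upstream of these genes, the 2 tested interferon genes moved in opposite directions, both on few counts. Of 14 ligand genes only IFNB1 and IFNL1 reached the filter. IFNB1, which encodes interferon beta (chromosome 9, 21077104 to 21077942, minus strand), had 57, 48 and 43 counts in EV and 26, 26 and 23 in TEFM. It was lower in every TEFM library, from 3.59 ± 0.349 to 1.84 ± 0.0802 FPKM (SD, n = 3; log2 fold change -0.93 ± 0.260 SE, edgeR adjusted p = 0.00554). IFNL1, which encodes interferon lambda 1 (chromosome 19, 39296407 to 39298673, plus strand), had 16, 22 and 26 counts in EV and 43, 47 and 29 in TEFM. It rose by a log2 fold change of 0.93 ± 0.302 SE (edgeR adjusted p = 0.0154), but not without EV replicate 1 (0.0903) or TEFM replicate 2 (0.0657), both edgeR adjusted p. IFNL2 and IFNL3, near-copies of each other, had 8 and 28 summed counts in EV and 15 and 15 in TEFM. IFNE had 15 and 4. IFNA1, IFNA2, IFNA6, IFNA8, IFNA13, IFNK and IFNG were at 0 in all libraries, and IFNA5 and IFNW1 had 2 counts each, all in TEFM.

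Of the 4 tested receptor genes, 0 rose and 1 fell, beside 21.7% of all tested genes in each direction. IFNGR1, a chain of the receptor for interferon gamma, fell from 18.5 ± 0.852 to 14.8 ± 0.477 FPKM (SD, n = 3; edgeR adjusted p = 3.45e-04). IFNAR1 for type I interferon (6.63 ± 0.166 and 6.41 ± 0.382 FPKM), IFNLR1 for type III interferon (2.83 ± 0.110 and 2.35 ± 0.205 FPKM) and IFNGR2 (9.96 ± 0.942 and 8.45 ± 0.516 FPKM) did not pass. IFNGR2 passed as lower without composition scaling (edgeR adjusted p = 0.0415) and without EV replicate 2 (edgeR adjusted p = 0.0389). The second chains IFNAR2 and IL10RB were below the filter, with summed counts of 234 and 172, and of 92 and 91. Of 15 tested JAK-STAT genes, 2 rose and 3 fell, beside the 21.7% of all tested genes in each direction. SOCS3, a feedback inhibitor of the kinases, had the largest change, from 1.00, 1.24 and 1.03 to 2.62, 2.56 and 2.95 FPKM (log2 fold change 1.36 ± 0.181 SE, edgeR adjusted p = 1.37e-06). PTPN6, a phosphatase that dampens signalling, rose by 0.32 on the log2 scale. PTPN2, a phosphatase that acts on JAK1, fell (log2 fold change -0.37), as did the kinase gene JAK2 (-0.30) and STAT3 (-0.12). The call of JAK2 was lost without EV replicate 2 (edgeR adjusted p = 0.0659) or TEFM replicate 2 (edgeR adjusted p = 0.0782). STAT3 is named outside the rule, after its values were seen.

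**Figure D5:**
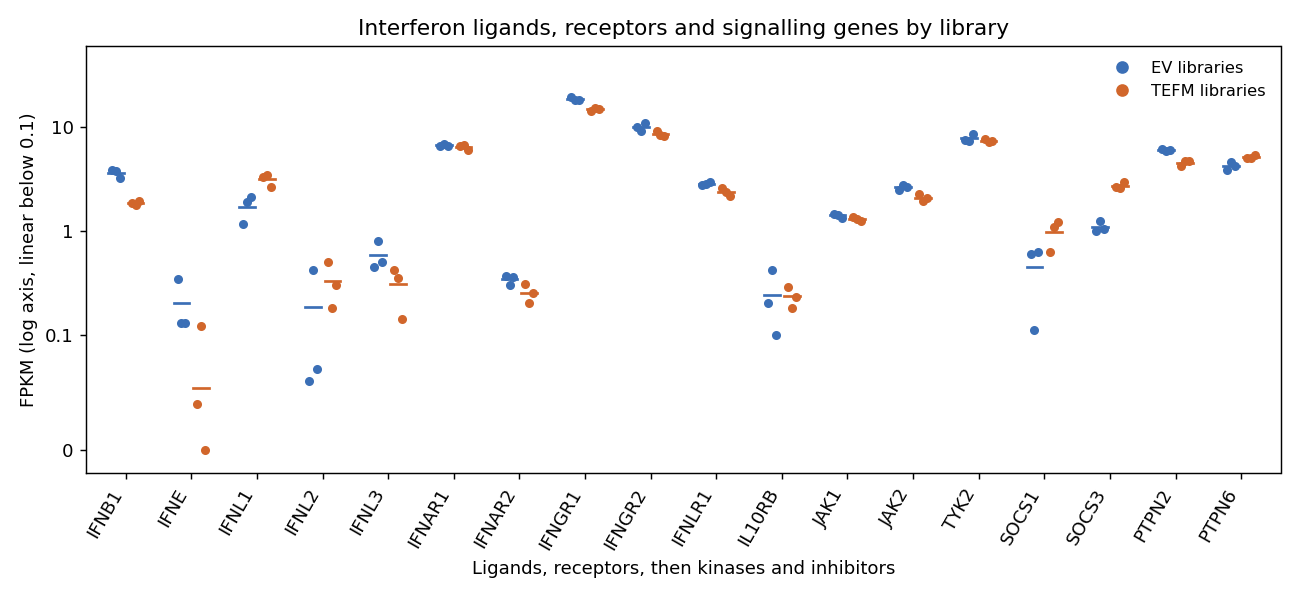
FPKM of interferon ligands, receptors, kinases and inhibitors in each library, on an axis that is logarithmic above 0.1 and linear below it (points: EV in blue, TEFM in orange; lines: group means). IFNB1 is lower and IFNL1 and SOCS3 are higher in every TEFM library, while IFNAR1 and JAK1 overlap.

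Genes of nucleic acid sensing were mostly not called: among 19 tested there were 2 higher and 1 lower calls, beside 21.7% of all tested genes in each direction. MAVS, the adaptor on mitochondria, rose from 14.8 ± 0.118 to 15.5 ± 0.375 FPKM (SD, n = 3; log2 fold change 0.11, edgeR adjusted p = 0.0237), and TRIM25, a ligase that aids RIG-I, rose by 0.13 on the log2 scale. Both calls were lost without composition scaling (edgeR adjusted p = 0.137 and 0.144), with limma on log2(FPKM + 1) (adjusted p = 0.142 and 0.244) and without EV replicate 2 (edgeR adjusted p = 0.0650 and 0.206) or TEFM replicate 1 (edgeR adjusted p = 0.0852 and 0.124). MAVS was also lost without TEFM replicate 2 (edgeR adjusted p = 0.0563), and TRIM25 without EV replicate 1 (edgeR adjusted p = 0.0859) or TEFM replicate 3 (edgeR adjusted p = 0.103). RNASEH2B, a subunit of an enzyme that removes RNA from DNA hybrids, fell (log2 fold change -0.19), in a 10 Mb bin with a median of -0.25; limma on log2(FPKM + 1) did not make this call (adjusted p = 0.104). RNF135, another ligase of RIG-I, had a log2 fold change of -0.26 (edgeR adjusted p = 0.0508). It passed as lower under 6 alternatives, with adjusted p from 0.0266 without composition scaling to 0.0489 without TEFM replicate 1 (both edgeR), and its highest edgeR adjusted p was 0.240, without TEFM replicate 3. PNPT1 and SUPV3L1, named after their values were seen, encode the enzymes that degrade double-stranded RNA in mitochondria and stood at 19.6 ± 0.571 and 18.0 ± 0.125 FPKM, and at 15.8 ± 0.860 and 14.8 ± 0.829 FPKM (SD, n = 3). Neither passed (edgeR adjusted p = 0.158 and 0.477).

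In a further list of 43 interferon-stimulated genes outside the set, 19 were tested; 8 rose and 3 fell, beside 21.7% of all tested genes in each direction. LY6E, a cell surface antiviral factor, went from 0.343 ± 0.119 to 1.81 ± 0.182 FPKM (SD, n = 3; log2 fold change 2.41 ± 0.276 SE, edgeR adjusted p = 1.29e-07). The chemokine gene CXCL10 went from 7.23, 8.40 and 6.63 to 17.12, 13.91 and 13.55 FPKM. In both genes every TEFM library lay above every EV library. LY6E passed the filter through its TEFM libraries alone. It was also called in the unfiltered fit (edgeR adjusted p = 1.47e-15), whose p-values are not on the scale of the main fit. APOL2 rose by a log2 fold change of 0.93. GBP1, an antiviral GTPase gene known as a target of interferon gamma, fell from 2.32, 1.83 and 1.97 to 0.59, 1.10 and 0.95 FPKM (log2 fold change -1.17 ± 0.174 SE, edgeR adjusted p = 6.32e-06). GBP1 passed the filter through its EV libraries alone and was also called in the unfiltered fit (edgeR adjusted p = 1.2e-13). Over all 5 lists of the pathway together, 13 of 59 tested genes rose and 9 fell, beside 21.7% of all tested genes in each direction. Without composition scaling 9 of the 59 rose and 17 fell, beside 2576 and 3679 of all 14254 tested genes.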

How the data were processed

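Total RNA was extracted with TRIzol and poly(A) RNA was sequenced, per the labels' protocols. The deposited table gives raw counts and FPKM per gene and library, per the file headers. The authors' FPKM divide by the exonic size of all annotated exons, which lowers the level of genes with many transcripts. The submitters' processing notes name cutadapt 1.9.1 and hg19. Aligner, counter and strand setting were not given in the sources used here. Yet positions in the table fit GRCh38, since 99.98% of the 58254 genes also in GENCODE v29 overlap their place there.

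Genes with a mean of at least 1 FPKM were tested on the counts as deposited, with TMM scaling (factors 0.982 to 1.02) and edgeR 4.0.16 (R 4.3.3), by its quasi-likelihood F test. P-values are two-sided and Benjamini-Hochberg adjusted over the 14254 tested genes; the procedure was checked on simulated data. The unfiltered fit took every gene with at least 1 count. Its adjusted p-values are not on the scale of the main fit. For IFITM3 the edgeR adjusted p was 8.32e-43 unfiltered and 4.62e-12 in the main fit, at log2 fold changes of 0.69 and 0.70. For BST2 it was 0.0351 unfiltered and 0.0283 in the main fit. Standard errors come from the F statistic. Intervals of summed counts are exact binomial at 95% and cover counting error only. Replicates differed beyond sampling noise, with a chi-square of 2.15 to 4.7 per degree of freedom. Alternatives were other scalings and filters, DESeq2 1.42.0, limma 3.58.1, leaving out single libraries, and a replicate block. The members and lists were chosen with earlier results of these data known. Named genes are all members, all ligands and receptors, up to 4 genes of each other pathway list with the smallest p, defining markers and overlapping genes; exceptions are stated. Some listed pathway genes are not reported here.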

Additional observations from a re-analysis of the deposited data

How the results depend on the processing

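The counts of 16 members that rose and 2 that fell were the same under median-of-ratios, upper-quartile and no composition scaling and with a robust fit. Of all 14254 tested genes, 2576 to 3281 rose and 2876 to 3679 fell under those settings. With limma on log2(FPKM + 1), 11 members rose and 1 fell, beside 2186 and 3105 of all 14254 tested genes. With DESeq2, 16 members rose and 1 fell, beside 2813 and 2730 of all tested genes. At a mean of at least 5 FPKM, 10 of 11 members rose and 0 fell in edgeR (0 also at an unadjusted p under 0.05); BST2 and USP18 are not among the 11. With that filter, 2046 of all 7743 genes then tested rose and 2103 fell. Of 34 pathway genes then tested, 4 rose and 6 fell. Leaving out each library gave 13 to 16 members that rose and 0 to 2 that fell. Of all 14254 tested genes, 2614 to 3152 then rose and 2543 to 3118 fell. No member passed as lower in edgeR without TEFM replicate 2, EV replicate 3 or EV replicate 1, where 0, 1 and 2 did at an unadjusted p under 0.05. Over the libraries left out, 9 to 12 of the 59 tested pathway genes rose and 7 to 10 fell. Without composition scaling, 17 of the 59 fell, beside 3679 of all 14254 tested genes. IFNAR1 turned to 0.0064 with upper-quartile scaling and ranged from -0.039 to 0.035 over the libraries left out, and COL1A1 from -0.015 to 0.10. The TEFM log2 fold change was 2.46 to 2.52 over the libraries left out. The labels number the replicates alike in both groups. Same-numbered libraries deviated with correlations of -0.034, 0.028 and -0.023, and the other pairs with -0.0545 to 0.0733. With 3 libraries per group, these values cannot tell whether same-numbered libraries were prepared together. With a replicate block, the same 16 members rose and the same 2 fell, beside 2986 and 2949 of all 14254 tested genes. The 18 members under 1 FPKM were left out by a level that depends on exon length as well as on counts. Some had few counts, such as OAS1 with 1 to 17 per library. Others had more counts than some tested members. MX1 had 123 to 207 per library over 17984 deposited exon bases, and IRF1 had 104 to 212 over 12265. The tested IFI6 had 21 to 50 over 936.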
